A study of Mus musculus with 20 samples.

Results

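The effect of doxycycline (Doxy) on gene expression in the ventricle of wild-type FVBN mice was measured on 6 Affymetrix arrays, out of 20 arrays in the series. The members were chosen by title: 4 arrays, 8337, 8338, 8340 and 8341, carry a Doxy label on FVBN, and 2 arrays, 8177 and 8182, are labelled FVBN control. FVBN is an inbred white mouse strain, and none of these 6 titles names a transgene. The other arrays with a group were 8 of tTA and 5 of tTA + Doxy. In these the tetracycline transactivator (tTA) was expressed in the heart, and the keywords in the labels name the alpha MHC promoter, which is active in cardiomyocytes. They contributed to the estimate of spread and to the comparison of genotypes given at the end. The title of 1 further array gives neither a number nor a treatment, and it was used in no comparison. The labels do not give the dose, duration or route of Doxy, the age or sex of the mice, the time of day at which tissue was taken, or whether each array came from a separate animal or a pool. The p-values therefore measure only the spread between these arrays, and the small number of arrays limits the precision.

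Doxycycline is a tetracycline antibiotic that stops bacterial protein synthesis at the small ribosomal subunit. Mitochondrial ribosomes descend from bacterial ones, so tetracyclines can also slow the synthesis of the respiratory chain subunits that mitochondrial DNA encodes, and they inhibit matrix metalloproteinases. In mice the drug is mostly used as a switch: it releases tTA from its operator and so turns a tTA-driven transgene off. A wild-type mouse has no such switch, so the FVBN arrays address what the drug does to ventricular RNA in its absence.

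The arrays of both FVBN groups were alike in scale. Their median intensities ran from 61 to 61.97, and the correlation between any 2 of the 6 arrays lay between 0.9934 and 0.9973. The log2 ratio of the control probe sets for the opposite ends of the beta-actin transcript, a check of RNA and labelling quality, was 0.549 ± 0.0082 (SD, n = 2) in FVBN control and 0.509 ± 0.0793 (SD, n = 4) in FVBN + Doxy, with p = 0.6 in an exact two-sided permutation test whose smallest possible p is 0.0667. The corresponding Gapdh ratio gave p = 0.4 in the same exact permutation test, and both had an adjusted p of 0.6. Array 8182 of FVBN control stood apart in some X-linked genes. Xist, the RNA that coats the inactive X chromosome, read 4.06 on array 8182 on the log2 scale, and 5.53 on array 8177 and from 5.52 to 5.74 on the Doxy arrays. Eif2s3x, an X-linked translation factor, read 8.97 on array 8182 and from 9.37 to 9.45 on the other FVBN arrays. Kdm6a, an X-linked histone demethylase, read 5.68 on array 8182, the lowest of the 19 arrays, 6.41 on array 8177 and 5.90 to 6.25 with Doxy. Ddx3x, also X-linked, did not set array 8182 apart. It read 7.41 there, within the 7.34 to 7.74 of the Doxy arrays, and 7.86 on array 8177. The Y-linked genes Kdm5d and Uty did not set this array apart, at 4.43 and 3.85, the latter being the floor. The labels give no sex, and the part of this array's X-linked values in the differences from control was not tested. Both called genes are also given without it. The array numbers of the Doxy group and of the control group do not interleave, so the drug and any difference between these sets of arrays cannot be told apart.

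Doxy was accompanied by few differences in wild-type ventricle. Nampt RNA fell to a level 1.75-fold lower and 1 probe set of Cdkn1a rose 1.5-fold. These were the only called probe sets: 2 of 11546, or 0.0173%, had a limma p-value below 0.05 after Benjamini-Hochberg adjustment, 1 in each direction (0.00866% each). At an unadjusted p below 0.05 there were 1106 probe sets (9.58%), of which 518 were higher (4.49%) and 588 lower (5.09%). The median absolute log2 fold change was 0.06, and 20 probe sets differed by more than 0.5 on the log2 scale, 11 of them higher with Doxy and 9 lower. The extremes were 0.84 and -0.85, so no probe set differed by more than 1. All 4 Doxy arrays lay above both controls for 10.7% of probe sets and below both for 9.02%. The median standard error of a fold change was 0.07.

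**Figure D1:**
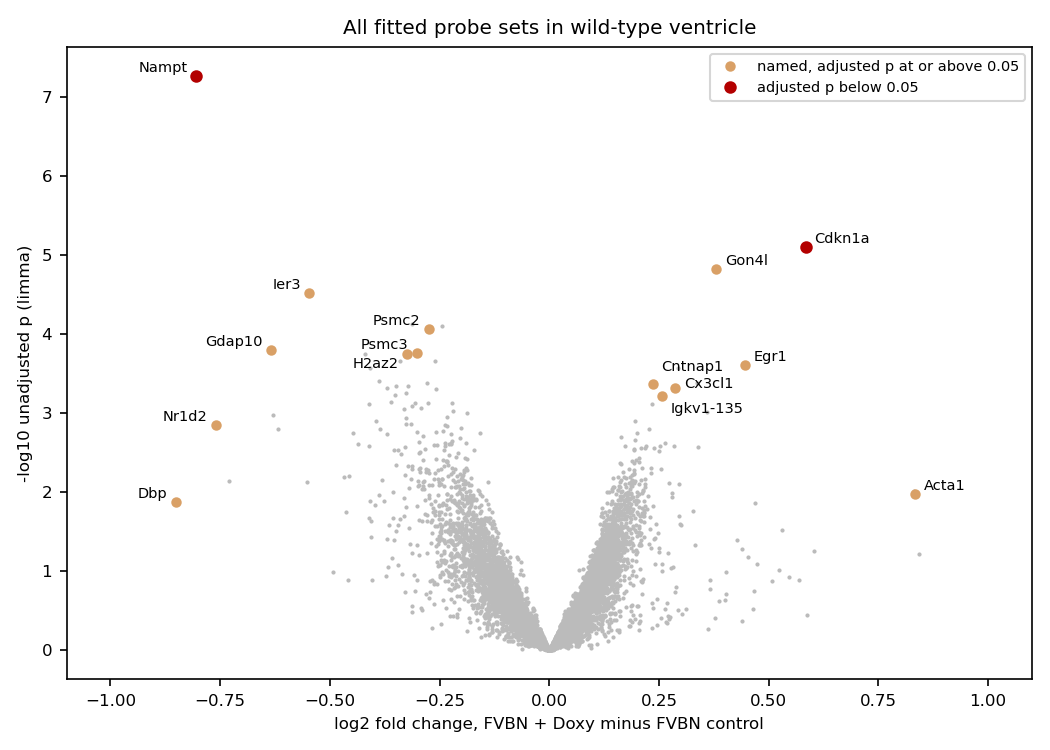
Each grey point is 1 of 11546 probe sets, with the log2 fold change of FVBN + Doxy minus FVBN control on the horizontal axis and -log10 of the unadjusted limma p on the vertical axis. Nampt at -0.80 and Cdkn1a at 0.59, in red, are the 2 with an adjusted p below 0.05; the other named genes are in orange, and Dbp at -0.85 and Acta1 at 0.83 differ by as much as Nampt with larger p-values, 0.0135 and 0.0105 before adjustment.

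Nampt encodes nicotinamide phosphoribosyltransferase, the rate-limiting enzyme of the salvage pathway that makes NAD from nicotinamide. Its log2 level was 7.77 and 7.42 on the control arrays, and 6.66, 6.85, 6.93 and 6.73 on the Doxy arrays. All Doxy arrays lay below both controls, and the gap of the lower control to the highest Doxy array was wider than the range within the Doxy group. The difference was -0.80 ± 0.10 (SE; 95% interval -1.01 to -0.60; adjusted p = 0.000625). The tTA arrays without Doxy were also below both controls, with a lowest value of 6.81, a median of 6.93 and a highest value of 7.22, and the tTA + Doxy arrays read 6.78, 6.74, 6.80, 6.74 and 6.81. The 2 FVBN control arrays were thus the highest of the 19 for Nampt. Without control array 8182 the difference was -0.98 (adjusted p = 0.000566), and without control array 8177 it was -0.63 and no longer called (adjusted p = 0.0928).

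Cdkn1a encodes p21, an inhibitor of cyclin-dependent kinases and a classical target of the transcription factor p53. The called probe set read 6.52 and 6.59 on the control arrays, and 7.05, 7.29, 7.27 and 6.95 on the Doxy arrays. Every Doxy array lay above both controls. The difference was 0.59 ± 0.10 (SE; 95% interval 0.38 to 0.79; adjusted p = 0.0456), which is close to the threshold. The tTA arrays, at 6.72 to 7.09, and the tTA + Doxy arrays, at 6.97 to 7.26, were also all above both FVBN controls, so the controls were the lowest of the 19 arrays. A brighter probe set of the same gene read 7.40 and 7.50 in the controls and 7.65, 7.65, 7.71 and 7.70 with Doxy. Its difference of 0.23 ± 0.06 (SE) had the same sign and no overlap between the groups, but was not called (adjusted p = 0.342). The call was lost without array 8177 (0.55, adjusted p = 0.527), without array 8182 (0.62, adjusted p = 0.147), without array 8338 (0.54, adjusted p = 0.148) and without array 8340 (0.54, adjusted p = 0.106). It was also lost without any 1 of 9 arrays of the tTA groups, which enter through the shared spread, with arrays scaled to the same median (0.57, adjusted p = 0.0926) and on the FVBN arrays alone (0.58, adjusted p = 0.124).

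The sequences before the start sites of these 2 genes are shown because they are the called ones, and the motifs searched are a GC box (GGGCGG), an E-box (CACGTG, the element bound by clock factors) and the p53 half-site, all on both strands. Each is the 250 bases upstream of a RefSeq start site in GRCm38.p6, on the plus strand, with matches in capitals. Nampt has 1 start site in the table, at chr12:32820085-32820334, and Cdkn1a has an upstream start at chr17:29090729-29090978 and a downstream one at chr17:29093519-29093768.
Nampt: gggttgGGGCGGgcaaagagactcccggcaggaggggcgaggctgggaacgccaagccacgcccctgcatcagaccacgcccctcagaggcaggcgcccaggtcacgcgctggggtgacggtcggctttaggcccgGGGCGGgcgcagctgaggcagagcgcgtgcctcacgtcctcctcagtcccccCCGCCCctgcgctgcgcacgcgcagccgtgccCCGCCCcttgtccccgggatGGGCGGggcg
Cdkn1a, upstream start: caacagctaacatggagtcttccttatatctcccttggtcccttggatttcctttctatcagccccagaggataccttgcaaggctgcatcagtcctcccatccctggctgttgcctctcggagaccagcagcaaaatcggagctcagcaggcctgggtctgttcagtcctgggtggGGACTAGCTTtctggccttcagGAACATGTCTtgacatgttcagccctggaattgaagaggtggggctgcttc
Cdkn1a, downstream start: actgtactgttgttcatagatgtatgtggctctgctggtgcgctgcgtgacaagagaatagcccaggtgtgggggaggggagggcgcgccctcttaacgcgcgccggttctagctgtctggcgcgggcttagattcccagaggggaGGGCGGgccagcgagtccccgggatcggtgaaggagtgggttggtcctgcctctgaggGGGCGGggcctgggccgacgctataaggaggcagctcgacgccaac
The Nampt window holds 5 GC boxes, and neither an E-box nor a p53 half-site was found in it. The upstream Cdkn1a window holds 2 p53 half-sites and the downstream one 2 GC boxes. Over 32851 mouse windows of the same length, 32.7% hold a GC box, 6.02% an E-box and 7.13% a p53 half-site, so a GC box is common. A match describes the letters only.

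**Figure D2:**
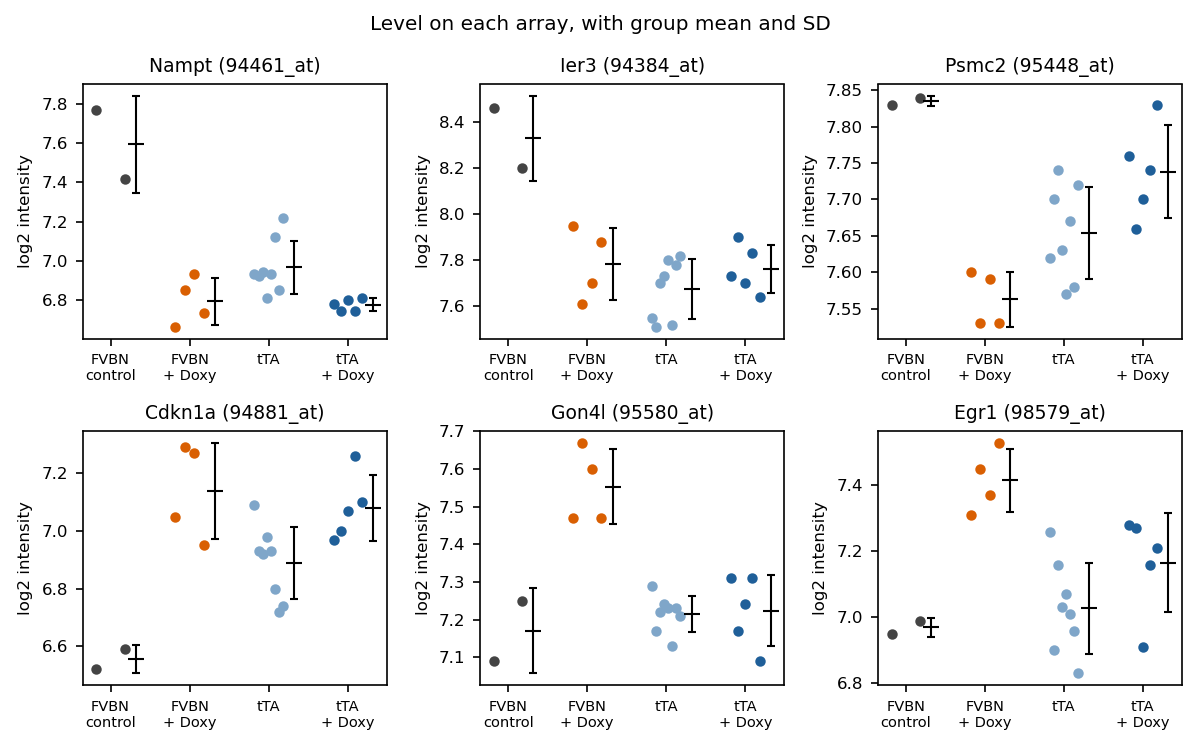
Log2 intensity of 6 genes on every array of the 4 groups, 1 point per array, with the group mean and SD beside the points; the vertical axes do not start at 0. For Nampt and Ier3 the 2 FVBN controls lie above all other arrays, for Cdkn1a below them, and for Gon4l the 4 FVBN + Doxy arrays lie above all others.

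The next probe sets in order of p missed the threshold, and their values are given without a claim of change. On the higher side, Gon4l, a nuclear protein that acts in transcriptional repression, read 7.09 and 7.25 in the controls and 7.47, 7.67, 7.60 and 7.47 with Doxy, a difference of 0.38 ± 0.07 (SE; adjusted p = 0.0576). In tTA and tTA + Doxy arrays Gon4l lay between 7.09 and 7.31, so here the Doxy-treated FVBN arrays were the ones apart. Egr1, an immediate early zinc finger transcription factor, read 6.95 and 6.99 in the controls and 7.31, 7.45, 7.37 and 7.53 with Doxy, a difference of 0.45 ± 0.10 (SE; adjusted p = 0.196). The others were Cx3cl1, the membrane-anchored chemokine fractalkine (0.29), Cntnap1, a protein of axon-glia junctions (0.24), and an immunoglobulin kappa variable segment (0.26), with adjusted p from 0.228 to 0.253. In each of these 3 genes all Doxy arrays were above both controls.

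On the lower side, Ier3, a stress-inducible early gene, read 8.46 and 8.20 in the controls and 7.95, 7.61, 7.70 and 7.88 with Doxy, a difference of -0.55 ± 0.10 (SE; adjusted p = 0.0873). As for Nampt, both controls were above all tTA arrays (7.51 to 7.82) and tTA + Doxy arrays (7.64 to 7.90). Ier3 was called when the arrays were scaled only to the same median (-0.62, adjusted p = 0.0292). Psmc2, an ATPase subunit of the proteasome cap, read 7.83 and 7.84 in the controls and 7.60, 7.53, 7.59 and 7.53 with Doxy, a difference of -0.27 ± 0.06 (SE; adjusted p = 0.144). A probe set of Psmc3, another ATPase of the same ring, differed by -0.30 and its other probe sets by -0.14 and -0.16. H2az2, a histone variant, differed by -0.32 and the transcript Gdap10 by -0.64, each with an adjusted p of 0.19. Gdap10 differed by -0.38 without control array 8177 and by -0.89 without control array 8182. In these 5 genes every Doxy array was below both controls.

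For the gene lists, a gene was taken by the brightest of its probe sets, and over all 7929 genes taken so, 0.0126% were called. By this rule NAD metabolism was the only one of 47 lists with a called member, Nampt. Cdkn1a is in the glucocorticoid response, p53 target and cell cycle lists, but by its brighter probe set, which was not called. The NAD metabolism list had 10 of 19 genes measured, and its median log2 fold change was -0.03, against 0.007 over all genes. The remaining 9 genes were all between -0.10 and 0.16: Nmrk1, a kinase of the parallel nicotinamide riboside route, differed by -0.10, Nadk, which turns NAD into NADP, by 0.16, and the NAD-dependent deacetylase Sirt1 by 0.12. None of these 3 reached an unadjusted p of 0.05. For Nmrk1 the Doxy arrays (4.06 to 4.15) were below both controls at 4.21, close to the floor of 3.85.

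Of the p53 target list, 14 of 21 genes were measured, each by its brightest probe set. No other member matched the size of the called Cdkn1a probe set, which is the dimmer one. By the brighter probe set that the list takes, Cdkn1a differed by 0.23, less than Sesn1 and Gadd45a in absolute size. Sesn1, a p53-inducible stress protein, read 8.43 and 8.30 in the controls and 7.89 to 8.24 with Doxy (-0.30, unadjusted p = 0.0151), opposite in sign to Cdkn1a. Gadd45a, a growth arrest gene, differed by -0.26 and Btg2, an antiproliferative gene, by 0.14. The median of the list was -0.02. In the cell cycle list, with 39 genes measured, 2 were higher and 2 lower at an unadjusted p below 0.05, where the background over 7929 genes was 4.96% higher and 5.51% lower. The lower ones were the inhibitor Cdkn1c (-0.41) and the cyclin Ccng2 (-0.31), and the higher ones Cdkn1a by its brighter probe set and the replication helicase gene Mcm3 (0.21).

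Proteasome genes had the lowest median of the lists with 10 or more measured genes. The proteasome is the barrel-shaped protease, capped by a regulatory particle, that degrades ubiquitin-tagged proteins. None of its 41 measured genes was called, but 32 were below 0 and the median was -0.10. At an unadjusted p below 0.05, 13 were lower and none higher, beside the background of 5.51% and 4.96%. In 16 genes all Doxy arrays were below both controls and in none above, where the background was 9.74% below and 11.7% above. The subunits with the lowest p were spread over the particle. In the core barrel, Psmb6, a catalytic subunit, read 9.05 and 8.96 in the controls and 8.79, 8.86, 8.77 and 8.84 with Doxy (-0.19), Psmb5, another catalytic subunit, differed by -0.23, and the ring subunits Psma3 and Psma7 by -0.21 and -0.25. In the cap, Psmd14, the subunit that removes ubiquitin, read 7.01 and 7.09 in the controls and 6.78, 6.88, 6.82 and 6.72 with Doxy (-0.25). The inducible catalytic subunits of the immunoproteasome did not share the sign: Psmb8, Psmb9 and Psmb10 differed by 0.25, 0.27 and 0.15. They were scattered among the Doxy arrays, Psmb9 reading 7.49, 6.90, 6.83 and 7.40 against 6.87 and 6.90 in the controls.

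**Figure D3:**
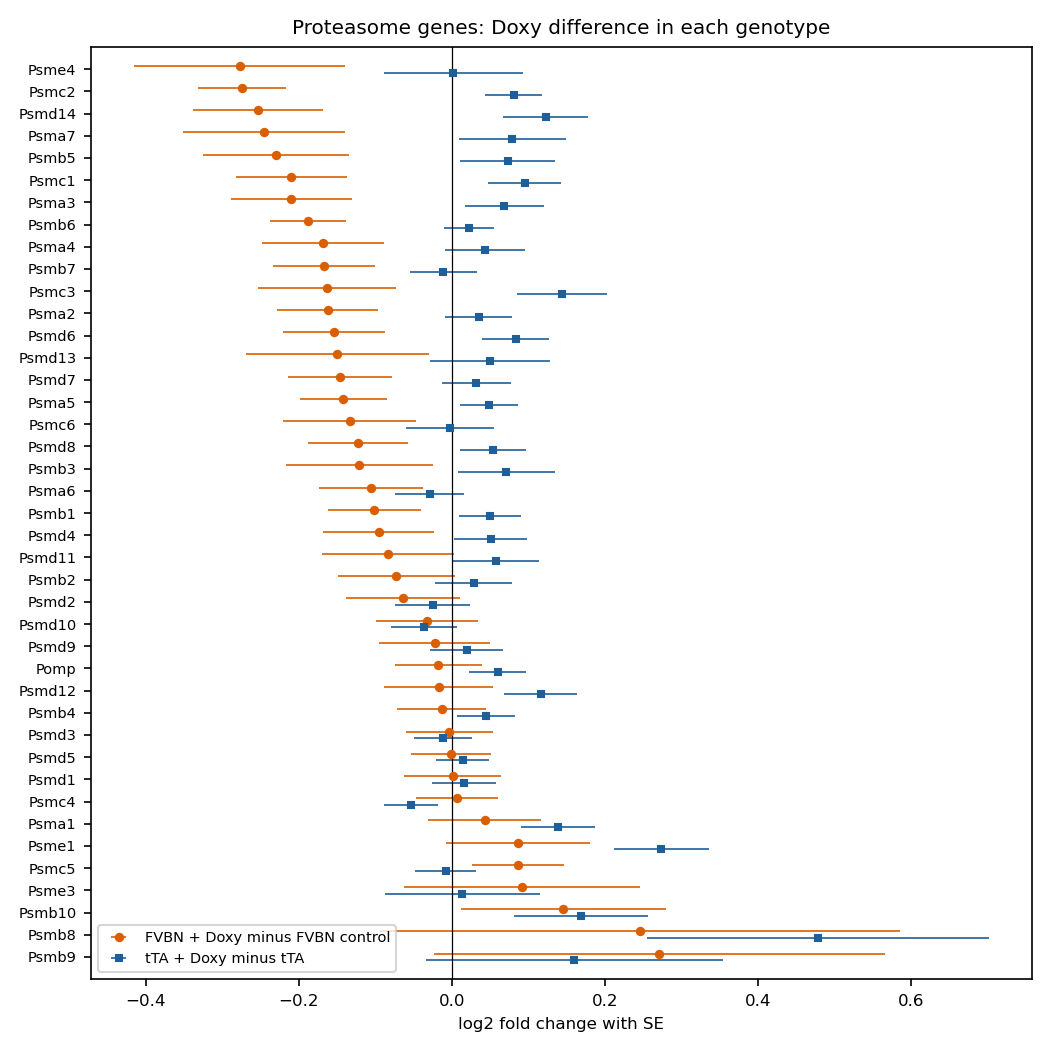
Log2 fold change with its SE for each of 41 proteasome genes, in FVBN (circles) and in tTA hearts (squares), ordered by the FVBN value. Most circles lie left of 0, with a median of -0.10, and most squares right of it, with a median of 0.05.

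In the tTA hearts the proteasome list had a median of 0.05 with Doxy, and 7 genes higher and 0 lower at an unadjusted p below 0.05. Over all probe sets the tTA share was 6.52%, both directions together. The size of the FVBN shift depended on the processing and on single arrays. The median was -0.16 with arrays scaled to the same median, -0.06 without control array 8177 and -0.15 without control array 8182. With arrays scaled to the same median, 20 genes were lower at an unadjusted p below 0.05, and without either control array fewer were. The median and share over all genes under that scaling are not given here, so the 20 has no background beside it.

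Genes of the mitochondrial ribosome, the machine that tetracyclines can bind, lay slightly lower with Doxy and none of 66 was called. Their median was -0.08, with 54 below 0, and 9 were lower and 0 higher at an unadjusted p below 0.05 (5.51% and 4.96% of all genes). The Doxy arrays lay below both controls for 18 genes and above for 3, against 9.74% and 11.7% of all genes. Mrps25, a small-subunit protein, read 7.16 and 7.04 in the controls and 6.62, 6.95, 6.50 and 6.53 with Doxy, a difference of -0.45 ± 0.12 (SE; adjusted p = 0.346). A dimmer probe set of Mrps25 differed by -0.30. The small-subunit proteins Mrps10 and Mrps21 differed by -0.28 and -0.25 and the release factor Mrpl58 by -0.21, with no overlap between the groups. Mrps18a had the opposite sign, at 0.18. In the tTA hearts the median of the list was 0.05, with 16 genes higher and 0 lower at an unadjusted p below 0.05 (6.52% of all probe sets, both directions together). With arrays scaled to the same median the FVBN median was -0.12, and the lower genes numbered 20 in place of 9. The 5.51% belongs to the quantile normalized values, and the share under that scaling is not given here. Without control array 8177 the lower genes were fewer, and the median was -0.06.

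The nuclear genes of the respiratory chain, which build the complexes together with the mitochondrially encoded subunits, had a median of -0.05 over 70 genes. At an unadjusted p below 0.05, 1 was higher, Ndufa12 (0.20), and 3 were lower: Uqcrh (-0.15), Atp5e (-0.18) and Cox17 (-0.17), parts or assembly factors of complexes III, V and IV. These counts are within the background share in each direction (4.96% higher and 5.51% lower). However, 55 of the 70 genes were below 0. The Doxy arrays lay below both controls for 13 genes and above for 4, against 9.74% and 11.7% of all genes. The median moved to -0.12 with arrays scaled to the same median, with 19 genes lower. That count has no background beside it, because the share over all genes under that scaling is not given here. Genes of the integrated stress response, which is known to follow mitochondrial stress, had a median of 0.08 over 24 genes. At an unadjusted p below 0.05, 3 were higher and 2 lower (4.96% and 5.51% of all genes). Asns, asparagine synthetase, read 8.40 and 8.47 in the controls and 8.57 to 8.74 with Doxy (0.22), while Ddit3, the stress factor CHOP, differed by -0.19.

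RNA splicing and RNA-binding genes had a median of -0.09 over 30 genes, with 1 higher and 8 lower at an unadjusted p below 0.05 (4.96% and 5.51% of all genes) and none called. Tia1, an RNA-binding protein of stress granules, differed by -0.30, Cirbp, a cold-inducible RNA-binding protein, by -0.28, Hnrnpa1 by -0.22 and the splicing kinases Clk1 and Clk4 by -0.21 each. Sf3a2, a spliceosome subunit, was the one on the higher side (0.21). The median in tTA hearts was 0.07, with 8 higher and 0 lower (6.52% of all probe sets in tTA, both directions together). Fewer genes were on the lower side in FVBN without either control array. Leaving out 1 FVBN array, the FVBN median ran from -0.10 to -0.05.

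Clock genes carried some of the largest differences and also much of the spread. The clock is a feedback loop in which Arntl and Clock, with Npas2 as a partner like Clock, drive the Per and Cry repressors and output factors such as Dbp and Tef, and in which Nr1d1 and Nr1d2 repress Arntl. None of the 20 measured genes was called. At an unadjusted p below 0.05, 7 were lower and 2 higher (5.51% and 4.96% of all genes), and the median was -0.06. Dbp had the most negative difference of all probe sets: the controls read 6.80 and 6.63 and the Doxy arrays 5.90, 5.61, 5.58 and 6.38, a difference of -0.85 ± 0.31 (SE; adjusted p = 0.462). The Doxy arrays were all below the controls but spread over 0.37 (SD, n = 4). Nr1d2 was tighter, with 7.99 and 7.76 in the controls and 6.92, 7.14, 7.19 and 7.21 with Doxy (-0.76 ± 0.20 SE; adjusted p = 0.338). Tef differed by -0.25 with no overlap between the groups.

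On the positive limb of the clock, Arntl read 4.82 and 4.65 in the controls and 5.06, 5.45, 5.26 and 5.04 with Doxy (0.47 ± 0.17 SE; adjusted p = 0.462). Npas2 read 5.58 and 5.61 in the controls and 5.71 to 5.86 with Doxy (0.17). On every Doxy array Arntl and Npas2 were thus above both controls, and Dbp, Tef and Nr1d2 below them. Clock, Nr1d1 (0.20) and Per1 (0.05) overlapped between the groups. In the whole list of 20, all Doxy arrays were above both controls for 2 genes and below both for 4. Over all genes the shares were 11.7% above and 9.74% below, so the number above is near its background. Per2 differed by -0.26, but 3 of its 4 Doxy values were at the floor of 3.85, so that difference has only a bound. In a fit to the 6 FVBN arrays alone, Nr1d2 was called (-0.75, adjusted p = 0.0344), as were the water channel Aqp1 (-0.63, adjusted p = 0.0105) and the dehydrogenase Dhrs7 (-0.62, adjusted p = 0.00448), while Dbp was not (adjusted p = 0.437). The number of clock genes lower at an unadjusted p below 0.05 was 4 without array 8338, and it was also smaller without control array 8177. The share over all genes in these fits is not given here. Leaving out 1 FVBN array, the median of the list ran from -0.08 to -0.04.

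**Figure D4:**
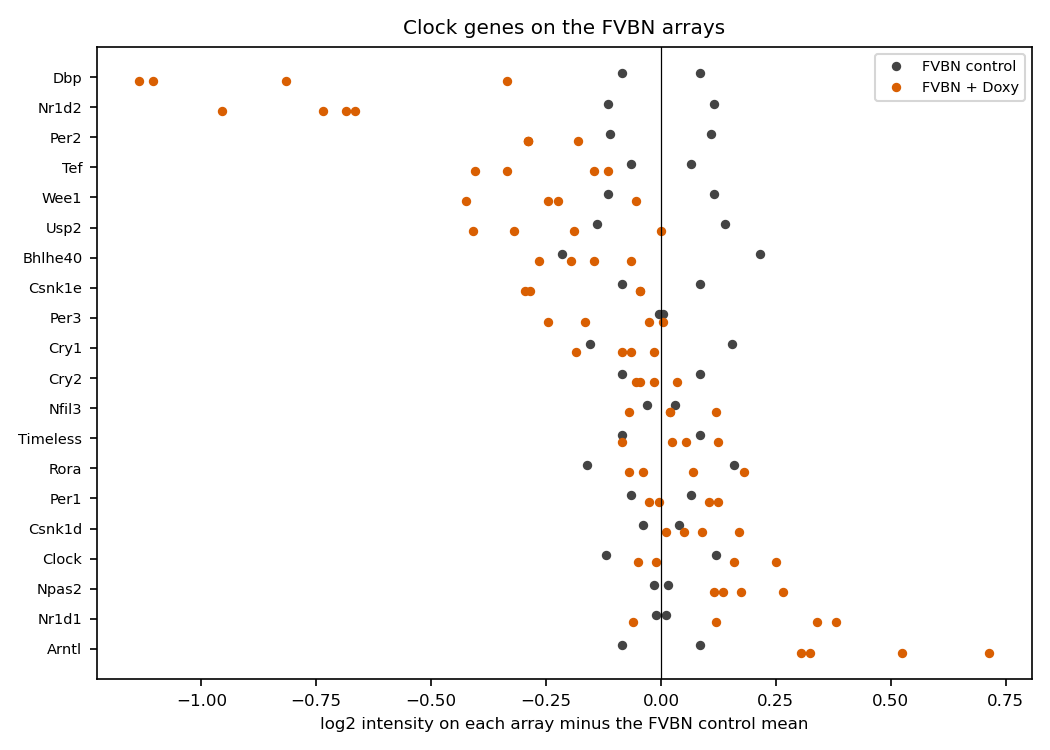
Each row is a clock gene, ordered by its difference; points are the log2 intensities of the 2 control (grey) and 4 Doxy arrays (orange) minus the control mean. Dbp and Nr1d2 lie left of both controls on all Doxy arrays and Arntl right of them, and Dbp on array 8341 is the closest to its controls.

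Immediate early genes, which respond within minutes to growth factor and stress signals, divided in sign. Of 28 genes measured, 7 were higher and 2 lower at an unadjusted p below 0.05 (4.96% and 5.51% of all genes), the median was 0.04 and none was called. Beside Egr1, the higher ones were the phosphatases Dusp6 (0.30) and Dusp1 (0.17), the cytokine signalling inhibitor Socs3 (0.22), the RNA-decay factor Zfp36 (0.17), the nuclear receptor Nr4a1 (0.17) and Egr2 (0.12). For each of the 7 the Doxy arrays were above both controls, as they were for 8 genes of the list and 11.7% of all genes. The lower ones were Ier3 and Btg1, an antiproliferative gene that read 6.97 and 6.98 in the controls and 6.61, 6.54, 6.83 and 6.27 with Doxy (-0.41). Without control array 8177 the higher genes were fewer, and the median was 0.02 without 8177, 0.08 without 8182 and 0.008 without 8341.

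Of the genes that mark cardiac load, Acta1, skeletal alpha-actin, read 9.20 and 9.45 in the controls and 10.19, 10.20, 9.85 and 10.39 with Doxy. The difference of 0.83 ± 0.29 (SE) was the largest among the fetal and hypertrophy genes, but was not called (adjusted p = 0.456). The SD of Acta1 over the tTA arrays was 0.38 (n = 8). Nppb, the B-type natriuretic peptide, read 10.33 and 10.92 in the controls and 11.00, 11.23, 11.33 and 11.35 with Doxy (0.60 ± 0.29 SE; adjusted p = 0.533), and its value was 0.31 without array 8177. Rcan1, a calcineurin regulator, differed by 0.53 with overlap. Nppa, the atrial natriuretic peptide, differed by 0.12 and Myh7, the slow myosin heavy chain, by -0.29, both with overlapping groups. The Myh7 difference was -0.13 without array 8337, and -0.03 by a dimmer probe set. Over 24 genes the median was 0.08, with 5 higher and 1 lower at an unadjusted p below 0.05 (4.96% and 5.51% of all genes). The higher count was smaller without array 8177. It was 1 with arrays scaled to the same median, where the share over all genes is not given here. The median was 0.03 without array 8182.

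No contractile or calcium gene was called. Of 26 cardiomyocyte and sarcomere genes 2 were higher and 0 lower at an unadjusted p below 0.05, and of 22 calcium handling genes 1 was higher and 3 lower (4.96% and 5.51% of all genes). The calcium list ran from -0.27 to 0.36. The adult myosin gene Myh6 read 12.15 on both controls and 12.12 to 12.21 with Doxy, a difference of -0.0007 with a 95% interval of -0.14 to 0.13. It is among the brightest probe sets, whose values quantile normalization makes nearly the same on every array. Over the other settings the Myh6 difference ran from -0.08 to 0.01. The sarcoplasmic calcium pump Atp2a2 differed by -0.01, the ryanodine receptor Ryr2 by -0.16 and the gap junction gene Gja1 by -0.11, all with overlapping groups. Sri, a calcium-binding protein that regulates the ryanodine receptor, had the lowest p of the calcium list, at 7.74 and 7.94 in the controls and 8.26, 8.25, 8.06 and 8.23 with Doxy (0.36, adjusted p = 0.287). The channel genes Abcc9 and Kcnj8, which form the vascular ATP-sensitive potassium channel, differed by -0.37 and -0.23 with no overlap. The list of ion channel and coupling genes did not share that sign. Its median was 0.03 over 29 genes, with 18 above 0 and 11 below. All Doxy arrays were above both controls for 4 of the 29 and below both for 2, against 11.7% and 9.74% of all genes.

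Among the remaining lists, the apoptosis and autophagy list included Sqstm1, the cargo receptor p62. Sqstm1 read 9.91 and 9.54 in the controls and 9.36, 9.35, 9.29 and 9.27 with Doxy (-0.41, adjusted p = 0.196). Gabarapl1, a protein of the autophagosome membrane, differed by -0.29. These plus Birc2 were the 3 lower genes of 38 at an unadjusted p below 0.05, with none higher, a count near the 5.51% of all genes. All Doxy arrays were below both controls for 8 of the 38 and above both for 2, against 9.74% and 11.7% of all genes. The matrix metalloproteinases, direct protein targets of tetracyclines, and their inhibitors had a median of 0.04 over 21 genes, and none was called. At an unadjusted p below 0.05, 1 was higher and none lower (4.96% and 5.51% of all genes). For 8 of the 21 genes all Doxy arrays were above both controls (11.7% of all genes). In the fibroblast and matrix list 6 were higher and 4 lower of 46 (4.96% and 5.51% of all genes), the higher ones including Col1a2 (0.22), Pcolce (0.23) and elastin, Eln (0.19). Glucocorticoid-responsive genes had a median of 0.05 over 28, with Fkbp5 at 0.12 and Tsc22d3 at 0.04, both overlapping. The metal-binding genes Mt1 and Mt2 differed by -0.03 and 0.02. Xenobiotic metabolism and transport genes, the list that would hold drug-handling enzymes, had a median of -0.01 over 26 genes. At an unadjusted p below 0.05, 1 was higher and 2 lower (4.96% and 5.51% of all genes).

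**Figure D5:**
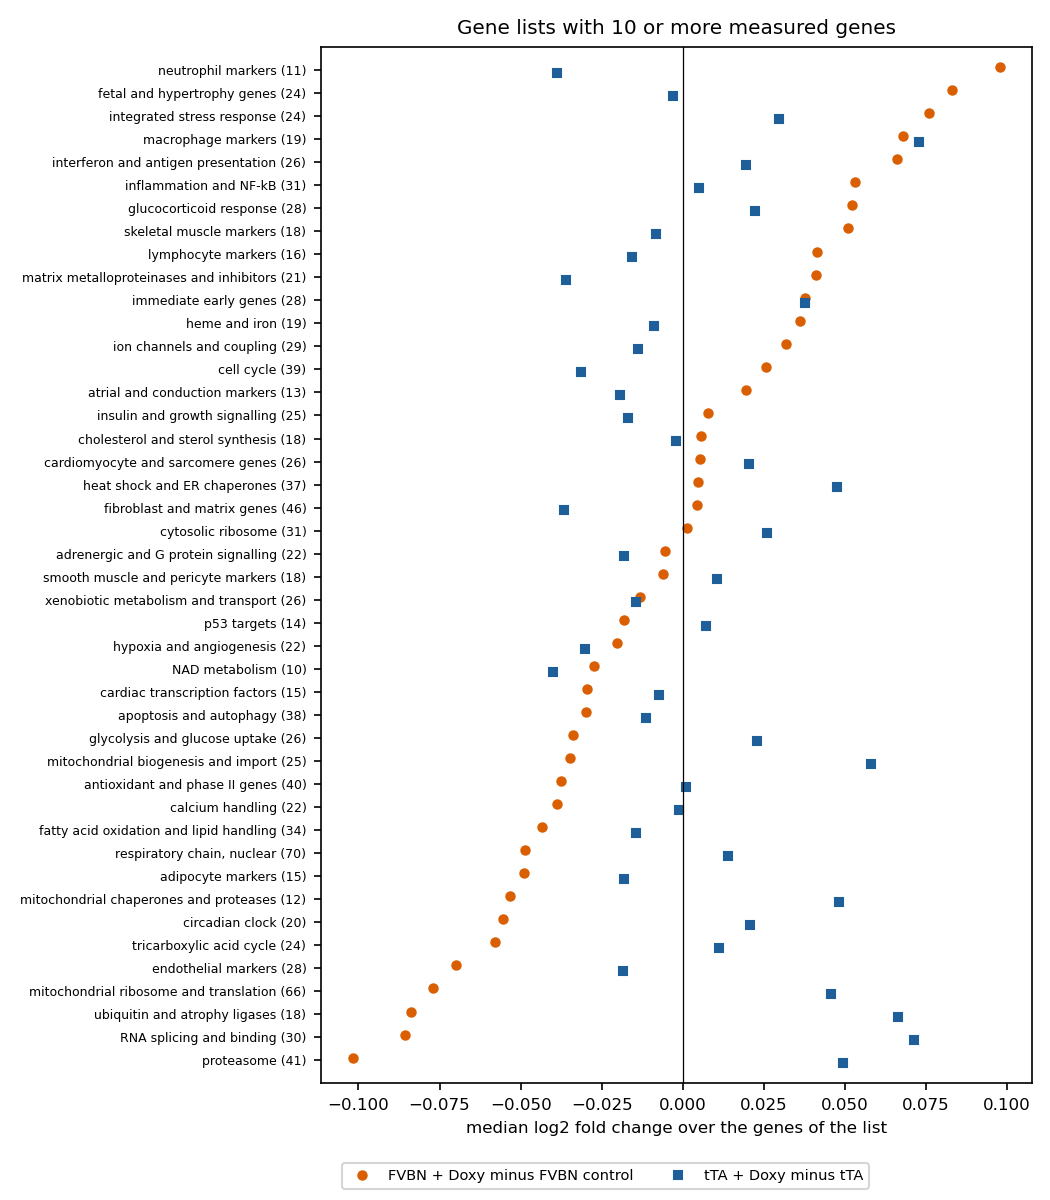
Median log2 fold change of each list with 10 or more measured genes, in FVBN (circles) and in tTA hearts (squares), with the number of genes in brackets. The FVBN medians lie between -0.10 for the proteasome and 0.10 for neutrophil markers.

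Markers of cardiomyocytes were bright in all 6 arrays. As the log2 of summed intensities, the 8 markers gave 14.94 to 15.01 in the controls and 14.94 to 15 with Doxy. Most of these 8 are among the brightest probe sets, where quantile normalization gives every array nearly the same values. Their sum could therefore hardly differ between arrays. The 4 atrial markers gave 8.80 to 8.89 in the controls and 8.81 to 8.98 with Doxy. The atrial light chain Myl7 averaged 5.37 in the controls and 5.19 with Doxy, below the median of 6.11 over all fitted probe sets. No marker of any cell type was called. Summed endothelial markers were 9.86 to 9.91 in the controls and 9.71 to 9.82 with Doxy, and did not overlap. The 5 markers summed divided in sign: Cdh5, Emcn and Tie1 differed by -0.22, -0.18 and -0.07, and Pecam1 and Kdr by 0.08 and 0.09. Of 28 endothelial genes, 18 were below 0 and 10 above. At an unadjusted p below 0.05, 3 were lower and 0 higher (5.51% and 4.96% of all genes): Aqp1 (8.12 and 7.97 against 7.38 to 7.45), Emcn and Cdh5. The median of the 28 was -0.07, and -0.009 without array 8182. Summed lymphocyte markers were 8.77 to 8.79 in the controls and 8.84 to 8.92 with Doxy, also without overlap, whereas macrophage markers (9.15 to 9.29 against 9.25 to 9.42), neutrophil markers (6.53 to 6.56 against 6.54 to 6.68), fibroblast markers (11.56 to 11.57 against 11.51 to 11.65), smooth muscle and pericyte markers (9.17 to 9.26 against 8.90 to 9.34) and skeletal muscle markers (8.31 to 8.32 against 8.25 to 8.47) overlapped. The 2 of 4 adipocyte markers with a probe set of their own summed to 5.86 to 6.16 in the controls and 5.52 to 5.87 with Doxy, and the 2 of 3 erythroid markers to 12.17 to 12.32 against 12.32 to 12.46. The longer lists of macrophage and neutrophil genes had 17 of 19 and 11 of 11 genes above 0, with medians of 0.07 and 0.10. In each list 1 gene was higher at an unadjusted p below 0.05 (4.96% of all genes). All Doxy arrays were above both controls for 4 of the 19 and 5 of the 11, and below both for 0 in either list. Over all genes the shares were 11.7% above and 9.74% below. Some neutrophil genes were dim, such as Cxcr2 with a control mean of 4.14, near the floor of 3.85. In bulk tissue, fewer cells of a type and less RNA per cell cannot be told apart, and the part of these shifts in the gene differences was not tested.

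With the same drug in tTA hearts, 5 of 11546 probe sets (0.0433%) were called and 753 (6.52%) had an unadjusted p below 0.05. Of the 1106 such probe sets in FVBN and the 753 in tTA, 104 were shared. The shared ones included 30 with the same direction, 2.71% of the FVBN ones and 3.98% of the tTA ones, and 74 with opposite directions. Over all probe sets the correlation of the Doxy differences in FVBN and tTA was -0.09, as a description across probe sets, which are not independent. These comparisons share no arrays. Their p-values do share the estimate of spread from all 19 arrays, so the number of shared probe sets is not an overlap of independent tests. Nampt differed by -0.19 and the called probe set of Cdkn1a by 0.19 in tTA, the same signs as in FVBN; tests of the difference between genotypes gave adjusted p-values of 0.107 and 0.326. Gon4l differed by 0.38 in FVBN, and the tTA value was lower by 0.37 (adjusted p = 0.19). Psmc2 and Ier3 had opposite signs in the genotypes, with interaction values of 0.36 and 0.63 (adjusted p = 0.107 for each).

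The interaction was called for 1 probe set (0.00866%), of Gstm5, a glutathione S-transferase. Its FVBN difference was -0.04 ± 0.19 (SE): the controls read 9.26 and 9.31 and the Doxy arrays 9.41, 9.13, 9.06 and 9.41, with overlap. The tTA arrays ran from 10.52 to 11.45 and the tTA + Doxy arrays from 9.34 to 9.61. The interaction was -1.61 (adjusted p = 0.0143), and 0 probe sets were called for the interaction without array 8337 or without array 8341, with 1099 and 1097 at an unadjusted p below 0.05. The other Gstm5 probe sets gave interactions of -1.475, -0.18 and -0.29, none of them called (adjusted p = 0.262, 0.669 and 0.344). In FVBN these differed by -0.31, 0.19 and 0.06, and for the first all Doxy arrays were below both controls. Clu, or clusterin, a secreted chaperone, read 8.54 and 8.34 in the controls and 8.45 to 8.72 with Doxy, with a tTA mean of 9.59, and it differed by 0.12 with Doxy (95% interval -0.09 to 0.34; 0.02 without control array 8182 and 0.22 without control array 8177).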

How the data were processed

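The authors deposited 1 value table of 20 arrays with intensity values on a linear scale. How these intensities were background-corrected, summarised and normalized is not stated in the labels. Of 12488 probe sets, 66 controls were left out. A platform table linked 10833 of the remaining 12422 to 1 gene, 396 to several and 1193 to none, and 10817 matched the RefSeq gene table by gene number.

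Intensities of the 19 arrays with a group were quantile normalized with limma 3.58.1 in R 4.3.3. Values under their 10th percentile, 14.37, were set to it before log2 was taken. The 876 probe sets at the floor on all arrays were left out, which left 11546. limma fitted 4 group means with a robust intensity trend; p-values were adjusted by Benjamini-Hochberg over all 11546. The script was tested on simulated data. Folds are the exponent of the log2 difference. No array duplicated another.

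Genes were named by rule: called probe sets linked to 1 gene and above median brightness, the 5 lowest p-values in a direction with fewer than 5 calls, called list members, called interaction members and 24 set genes; list members named beyond that were chosen after their values were seen. The members and lists were chosen with earlier results of these data known. Lists are described by counts and medians, without a set test. Promoter sequences are RefSeq's, GRCm38.p6. Alternatives changed normalization, floor, brightness filter, variance model, arrays in the fit, a beta-actin covariate, probe sets and single arrays.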

Additional observations from a re-analysis of the deposited data

Results flagged for a closer look

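Gstm5 was singled out because its Doxy difference was not the same in the genotypes: the tTA difference minus the FVBN difference was -1.61 by an interaction test, with the values given above.

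In groups of 4 to 10 arrays, the highest or lowest array was compared with its nearest neighbour by Dixon's criterion, which by chance marks about 1 in 20 groups. Of 108 groups tested over the named genes and the beta-actin and Gapdh ratios, 6 were marked. In FVBN + Doxy, 2 of 36 were marked: Per2 on array 8341, at 3.96 against 3.85 for the others at the floor, and Psmc3 on array 8337, at 7.61 against 7.56. The 4 others were in tTA arrays. Arntl read 5.46 on tTA + Doxy array 7399 (nearest 4.96), Nr1d1 7.63 on tTA + Doxy array 7486 (nearest 7.34), Per2 4.24 on tTA + Doxy array 7485 (nearest 4.12), and Nppa 8.70 on tTA array 9310 (nearest 8.12). These counts are close to the share that chance gives. They include Per2 on array 8341, which had to be marked because the other Doxy values were equal at the floor.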

How the results depend on the processing

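Nampt kept its direction in all 29 settings (-0.98 to -0.63) and its call in 28. Cdkn1a kept its direction in all 30, its other probe set included, and its call in 13.

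The 2 calls in FVBN became 4 with the brightest 40% of probe sets, 1 without the intensity trend and robust fit, and 4 on the FVBN arrays alone, where only Nampt was shared. Leaving out 1 array gave 1 to 7. Without control array 8177 the 2 calls were Xist (1.56) and Eif2s3x (0.44), neither of them a call of the full set; without control array 8182 there were 5, all lower: Nampt, Scgb1a1, Cd1d1, Gdap10 and Sqstm1. Leaving out array 8337 gave 4, arrays 8338 or 8340 1 each, and tTA array 9322 gave 7. Calls of the interaction numbered 2 with arrays scaled to the same median, 2 on values as deposited and 5 with the brightest 40%; leaving out 1 array gave 0 to 3. The cause of these changes was not tested.

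Genes with differences near 0 changed sign. Mt2 was -0.0235 with arrays scaled to the same median and -0.0116 as deposited. Mt1 was 0.0004 with array weights. Myh6 was 0.0079 with array weights, 0.0011 on FVBN arrays alone and 0.0044 with the beta-actin covariate. Gstm5 was 0.0132 with that covariate, and 0.1897 and 0.062 by other probe sets. A further Gstm5 probe set kept the sign, at -0.3134. Leaving out 1 array, Tsc22d3 ran from -0.0339 to 0.1162, Per1 from -0.0174 to 0.1147, Mt2 from -0.0881 to 0.1276, Mt1 from -0.0656 to 0.0367, Myh6 from -0.0217 to 0.0104, Atp2a2 from -0.2109 to 0.1872 and Gstm5 from -0.0897 to 0.0278.

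No paired analysis was possible because the groups share no replicate numbers. Dim probe sets near the floor have no measured level, and 2 control arrays set the precision.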
